A study of Mus musculus with 6 samples.

Results

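The genes described here encode nuclear subunits of the mitochondrial respiratory chain, complexes I to IV, measured in mouse kidney. They were chosen by symbol alone: Ndufa, Ndufb, Ndufc, Ndufs and Ndufv genes, Sdha to Sdhd, Uqcr genes, and the Cox4i, Cox5, Cox6, Cox7 and Cox8 genes, with the Ndufaf assembly factors left out. The rule found 68 of the 20284 genes with a named probe. Complex I had 36 of them, complex II 4, complex III 8 and complex IV 20. Ndufa4 and Ndufa4l2 were counted with complex IV, because Ndufa4 is a subunit of that complex despite its symbol. The rule itself uses no measured value. Kidney RNA came from male C57BL/6 mice aged 2 months (young) or 20 months (aged), with 3 samples per age, and the labels name no treatment and no genetic change for either age. Each sample was hybridised to its own one-colour Agilent array. The labels describe independent RNA preparations but do not say that each came from a different mouse, so p-values cover only how far these samples differ from each other, part of which may be technical.

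The respiratory chain moves electrons from NADH and succinate to oxygen and pumps protons across the inner mitochondrial membrane, and ATP synthase uses that proton gradient. Complex I takes electrons from NADH, complex II from succinate in the citric acid cycle, complex III passes them from coenzyme Q to cytochrome c, and complex IV hands them to oxygen. Most of the subunits are encoded in the nucleus, and the kidney tubule, which reabsorbs salt and solutes by ATP-driven transport, is among the tissues richest in mitochondria. Several complex IV subunits exist as a widely expressed form and a form known from heart, skeletal muscle, lung or testis.

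The 75th percentile of processed signal lay between 2702 and 4498 units on the 6 arrays. Probes well above background made up 72.8%, 68.9% and 55.2% in young and 62.8%, 55.6% and 46.2% in aged replicates 1, 2 and 3. This share was lower in the aged array at each replicate number. The 75th percentile was higher in aged than in young for replicates 1 and 2 and lower for replicate 3. The cause of the lower share in aged arrays was not tested. All 6 arrays lay on 1 slide, the young in one row and the aged in the other, and an effect of the row cannot be told apart from age. All 29 markers of kidney tubule segments and podocytes were well above background on all 6 arrays. Among markers of other cells, 3 of 4 tested for B and plasma cells, 3 of 4 for T cells and 1 of 5 for adipocytes were higher in aged kidney, and 2 of 4 for fibroblasts and pericytes were lower. Their part in the results below was not tested. In whole kidney RNA, fewer cells of a type and less RNA per cell cannot be told apart.

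Of the respiratory chain genes, 66 were bright enough to test. Of these, 1 (1.52%) was called lower in aged kidney, beside 1.40% of all genes tested. That call was lost in some of the alternative runs given below. Cox6a2, the form of complex IV subunit 6a known from heart and skeletal muscle, was 1.88-fold lower in aged than in young kidney (95% interval 1.48 to 2.38, n = 3 per age). None was higher at the same threshold, a Benjamini-Hochberg adjusted p under 0.05 in limma. Over all 14545 genes tested, 3.38% passed that threshold, 1.40% lower and 1.98% higher in aged kidney. At an unadjusted p under 0.05, 3 respiratory chain genes passed, all lower in aged kidney (Cox6a2, Sdhd and Uqcrb), or 4.55% of those tested, beside 17.1% of all genes and 9.17% of all genes in the lower direction.

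Small differences of one sign were common among the members, and the counts that follow include Cox6a2. The log2 change, aged minus young, was below 0 for 53 of 66 genes and above 0 for 13, with a median of -0.11, beside a median of -0.01 and 52.8% below 0 over all genes. In 11 genes every aged value lay below every young value (Ndufa1, Ndufa5, Ndufa7, Ndufb4, Sdhb, Sdhd, Uqcrb, Uqcr11, Cox6a2, Cox6b1 and Cox7c), and in 0 genes did every aged value lie above. That was 16.7% of the members. Over all genes the ages did not overlap for 21.9%, with every aged value lower for 11.5% and higher for 10.4%. For 58 of the 66 members (87.9%) the 95% interval of the change lay within 1.5-fold in either direction, which held for 67.5% of all genes, and for 64 it lay within 2-fold. The exceptions to 2-fold were Cox6a2 and Cox8b. The members were mostly bright. Their median log2 signal, relative to each array's 75th percentile, was 3.65 to 3.97 per array, beside 0.40 to 0.46 over all genes tested. The shares over all genes were not matched for brightness.

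**Figure D1:**
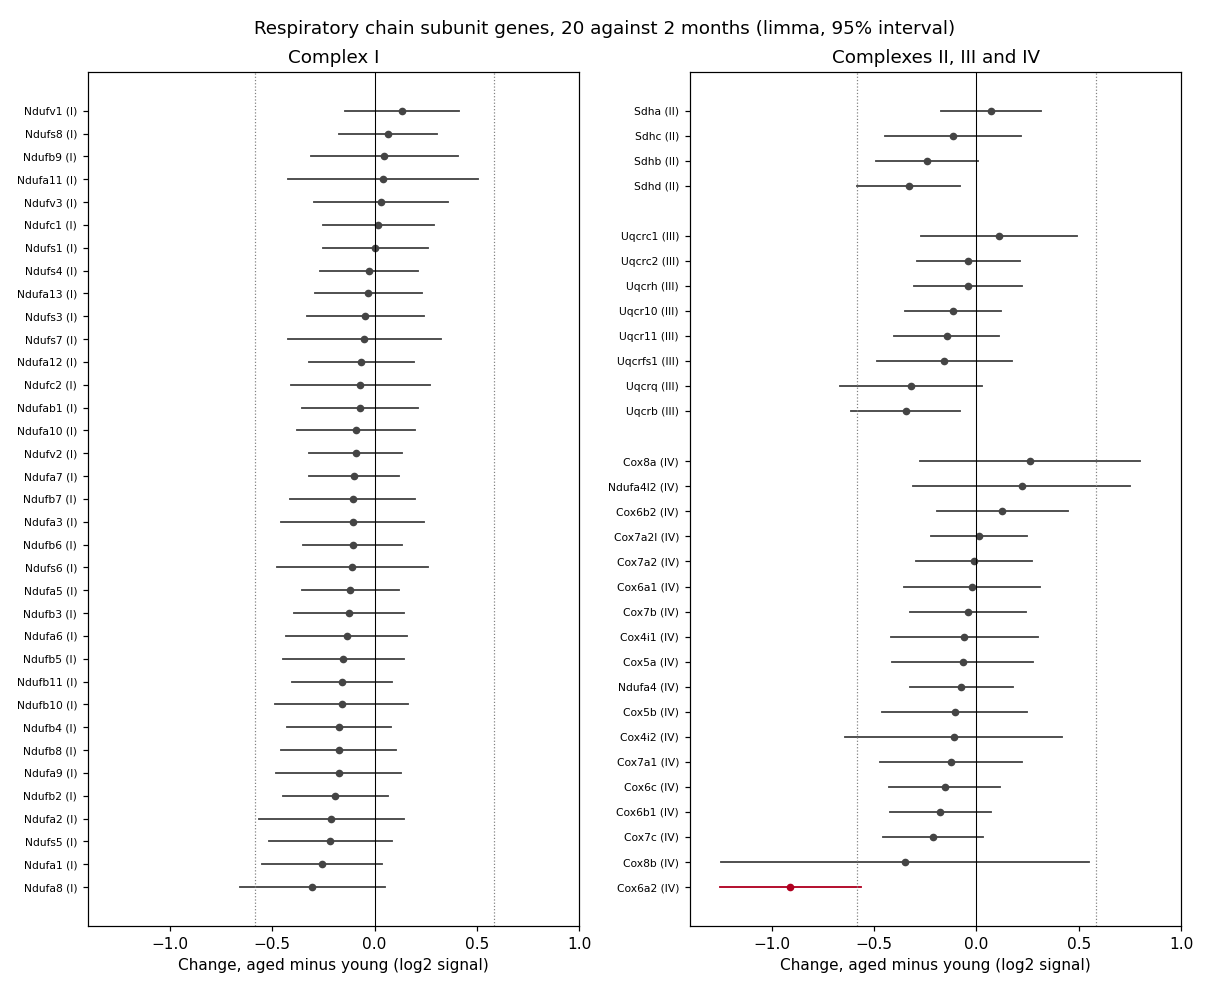
Change of the 66 tested respiratory chain genes except 1 that is not shown, aged minus young, in log2 signal, with limma's 95% interval (3 arrays per age); dotted lines mark 1.5-fold in each direction and red marks an adjusted p under 0.05. Most points sit a little to the left of 0 with intervals that cross it, and Cox6a2 at -0.91 stands apart on the left.

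The size of the common shift depended on single arrays. A value of 0 on the normalised log2 scale is a signal at its array's 75th percentile, and on that scale the median of the tested members was 3.84, 3.90 and 3.97 in young replicates 1, 2 and 3 and 3.77, 3.65 and 3.90 in aged replicates 1, 2 and 3. Aged replicate 2 was the lowest array, and aged replicate 3 lay inside the young range. Of the 64 members measured on all 6 arrays, 36 (56.2%) had their lowest value in aged replicate 2 and 19 (29.7%) in aged replicate 1, while 25 (39.1%) had their highest value in aged replicate 3. Over all genes measured on all 6 arrays these shares were 22.7%, 19% and 27%. The 3 slide columns each held a young and an aged array, and within them the median change of the members was -0.08, -0.20 and 0.02, beside -0.03, -0.02 and 0.02 over all genes. Without aged replicate 1 or 2 the median change of the members was -0.055 and -0.058, without young replicate 3 it was -0.071, and without aged replicate 3 it was -0.183. The number of members below 0 was then 44, 45, 49 and 60. With arrays centred on their median, 47 members lay below 0 and their median was -0.064, while the median of all genes moved to 0.03.

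**Figure D2:**
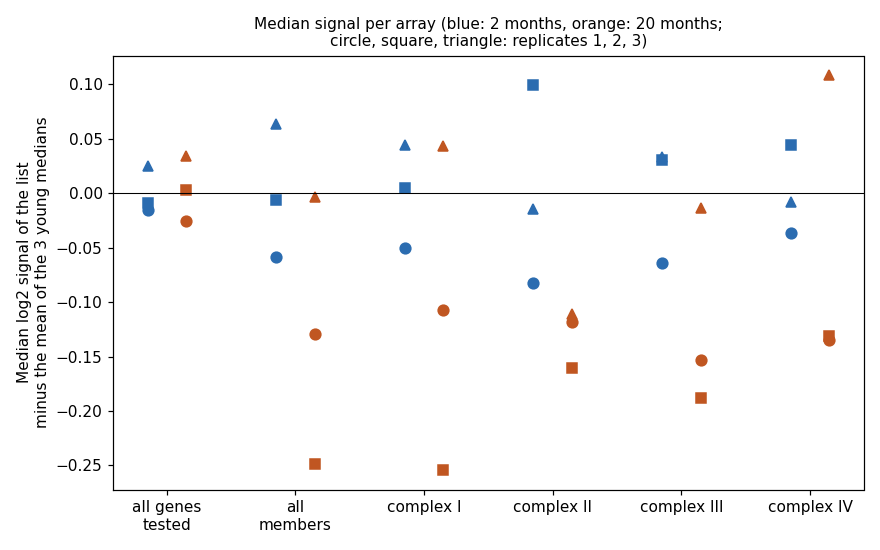
Median normalised log2 signal of each gene group on each array, minus the mean of the 3 young medians, for all genes tested, all members and each complex. Aged replicate 2 is the lowest point for all members and for complexes I, II and III, while aged replicate 3 lies near the highest young array for complex I and above the young arrays for complex IV.

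Complex I, the NADH dehydrogenase and the largest of the complexes, had 29 genes below 0 and 7 above, with 0 of 36 past the threshold. The changes ran from -0.30 to 0.13 with a median of -0.10, and 35 of 36 intervals lay within 1.5-fold. The median was -0.068 and -0.060 without aged replicate 1 or 2, -0.183 without aged replicate 3 and -0.061 when arrays were centred on their medians. The smallest adjusted p was that of Ndufa1, a small membrane subunit, whose values were 3.81, 3.89 and 3.96 in young and 3.77, 3.41 and 3.70 in aged samples. Its groups did not overlap, aged replicate 1 lying just under the lowest young value, and the change of -0.26 ± 0.13 (SE) had an adjusted p of 0.350 in limma. Ndufa8, an accessory subunit on the intermembrane face, had the lowest change of the complex. Its values were 2.70, 2.80 and 2.38 in young and 2.48, 2.11 and 2.37 in aged samples, which overlapped, for a change of -0.30 ± 0.15 and an adjusted p of 0.362. Ndufb2, an accessory subunit of the membrane arm, was at 3.27, 3.42 and 3.37 in young and 3.28, 3.05 and 3.14 in aged samples, with aged replicate 1 inside the young range (-0.19 ± 0.11, adjusted p = 0.435).

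The 7 nuclear core subunits of complex I carry the flavin and the iron-sulfur clusters or line the coenzyme Q pocket, and their changes lay closer to 0, with 4 below 0 and a median of -0.05. Ndufv1, which binds NADH and the flavin, had the highest change of complex I, with 3.90, 3.86 and 4.01 in young and 3.87, 4.18 and 4.11 in aged samples. Aged replicates 2 and 3 lay above the young range and aged replicate 1 inside it, and the change was 0.13 ± 0.12 (adjusted p = 0.631). Ndufv2, its iron-sulfur partner, was at 4.24, 4.26 and 4.19 in young and 4.19, 4.08 and 4.14 in aged samples, a change of -0.09. Ndufs1, the large iron-sulfur subunit, read 3.82, 3.71 and 3.84 in young and 3.82, 3.65 and 3.90 in aged samples. Its change was 0.00 with an interval of -0.25 to 0.26, and the aged values reached past the young range on both sides.

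Ndufs7 carries the last iron-sulfur cluster before coenzyme Q. It read 4.13, 4.21 and 4.57 in young and 4.11, 4.15 and 4.50 in aged samples, so replicate 3 was the highest at each age, and the change was -0.05 ± 0.16. Ndufs3 and Ndufs8 belong to the arm that leads electrons towards coenzyme Q. Ndufs3 was at 3.70, 3.82 and 3.54 in young and 3.63, 3.52 and 3.77 in aged samples (-0.05), and Ndufs8 at 3.93, 3.85 and 3.97 in young and 3.90, 3.98 and 4.06 in aged samples (0.06). Neither pair of groups separated.

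The accessory subunits of complex I surround this core and are needed for its assembly and stability. Of 13 Ndufa and Ndufab genes counted with complex I, 12 were below 0, with a median of -0.11. Of 10 Ndufb genes, which belong to the membrane arm, 9 were below 0, with a median of -0.16 and a range of -0.19 to 0.05, and Ndufb9 was the one above 0. The other 6 accessory genes (Ndufc1, Ndufc2, Ndufs4, Ndufs5, Ndufs6 and Ndufv3) had a median of -0.05, with 4 below 0. Among them Ndufs5, an intermembrane subunit, had a change of -0.22 ± 0.13, and Ndufs4, which stabilises the NADH-binding arm, one of -0.03 ± 0.10. The difference between core and accessory subunits was not tested. Ndufa11 had no usable spot on young replicate 2, where it carried an outlier flag, and its change of 0.04 ± 0.20 rests on 2 young and 3 aged arrays.

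Complex II, succinate dehydrogenase, has 4 subunits, all nuclear, and had 3 below 0, 0 past the threshold and a median of -0.18, which was -0.272 without aged replicate 3. Sdhd, one of the membrane anchors that hold the coenzyme Q site, was at 3.94, 4.18 and 4.11 in young and 3.79, 3.76 and 3.69 in aged samples. Every aged value lay below the young ones. The change was -0.33 ± 0.11 (interval -0.58 to -0.08), with an adjusted p of 0.169 in limma, the smallest among all members after Cox6a2. Sdhb, the iron-sulfur subunit, read 4.31, 4.24 and 4.30 in young and 4.09, 3.90 and 4.13 in aged samples, again without overlap (-0.24 ± 0.11, adjusted p = 0.305). Sdhc, the other anchor, was at 3.15, 3.22 and 3.17 in young and 2.83, 3.02 and 3.35 in aged samples, with aged replicate 3 the highest of all (-0.11 ± 0.14, adjusted p = 0.744). Sdha, the flavoprotein that oxidises succinate, was at 3.26, 3.39 and 3.24 in young and 3.35, 3.29 and 3.46 in aged samples, a change of 0.07 ± 0.11 on the other side of 0.

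In complex III, the cytochrome bc1 complex, 7 of 8 Uqcr genes were below 0, with a median of -0.13 and 0 past the threshold. Without young or aged replicate 2 the median was -0.083 and -0.055. Uqcrb, a subunit at the coenzyme Q site, was at 4.21, 4.42 and 4.30 in young and 4.10, 3.87 and 3.90 in aged samples, which did not overlap. Its change was -0.35 ± 0.12 (interval -0.61 to -0.08, adjusted p = 0.177), and its other 2 probes gave -0.33 and -0.07. Uqcrq, which sits beside it, read 3.72, 4.07 and 4.02 in young and 3.78, 3.38 and 3.68 in aged samples. Aged replicate 1 lay above young replicate 1, and the change was -0.32 ± 0.15 (adjusted p = 0.329). Uqcr11, a small subunit, was at 4.44, 4.47 and 4.49 in young and 4.37, 4.17 and 4.42 in aged samples, lower in each aged sample by a small margin (-0.15 ± 0.11, adjusted p = 0.556).

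The Rieske iron-sulfur protein Uqcrfs1, which carries electrons to cytochrome c1, was at 2.83, 2.98 and 2.72 in young and 2.87, 2.45 and 2.75 in aged samples. Only aged replicate 2 lay below the young range (-0.16 ± 0.14). The core proteins Uqcrc1 and Uqcrc2 anchor the matrix side of the complex. Uqcrc1 was at 3.98, 4.10 and 4.15 in young and 3.95, 4.06 and 4.54 in aged samples, with aged replicate 3 above all others and a change of 0.11 ± 0.17. Uqcrc2 was at 4.46, 4.49 and 4.57 in young and 4.38, 4.41 and 4.60 in aged samples, with overlapping groups and a change of -0.04 ± 0.11.

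Complex IV, cytochrome c oxidase, has its catalytic core encoded in mitochondrial DNA and a ring of nuclear subunits around it. Of its 20 nuclear genes 18 were tested, 14 were below 0 and 4 above, and the median was -0.07 (-0.06 over the 12 genes without tissue isoforms). The median was -0.017 without young replicate 3, -0.027, -0.012 and -0.166 without aged replicates 1, 2 and 3, and -0.028 with median centring. Cox4i1, the common form of the largest nuclear subunit, was at 4.77, 4.98 and 5.11 in young and 4.76, 4.75 and 5.17 in aged samples. Cox5a and Cox5b bind the matrix side, and their changes were -0.07 ± 0.15 and -0.11 ± 0.15. Cox5a read 3.96, 4.12 and 4.23 in young and 3.89, 3.90 and 4.31 in aged samples, and Cox5b read 3.86, 3.90 and 4.07 in young and 3.73, 3.63 and 4.14 in aged samples. In all 3 genes aged replicate 3 was the highest of the 6 values, and the groups overlapped. Cox7c, a small subunit of the ring, was at 3.91, 3.95 and 3.78 in young and 3.64, 3.76 and 3.61 in aged samples. The aged values lay lower without overlap, at -0.21 ± 0.11 (adjusted p = 0.361), and its 3 probes ran from -0.42 to -0.21. Cox7b and Cox7a2l, the latter a factor that joins complexes III and IV, were at -0.04 ± 0.12 and 0.01 ± 0.10. Cox7b read 4.08, 3.97 and 4.08 in young and 3.85, 3.95 and 4.20 in aged samples, and Cox7a2l read 3.79, 3.84 and 3.75 in young and 3.76, 3.75 and 3.90 in aged samples, so aged replicate 3 was again the highest for both.

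Cox6a2 was at 0.06, 0.36 and 0.38 in young and -0.40, -0.78 and -0.75 in aged samples. It fell in aged kidney by 0.91 ± 0.15 on the log2 scale (interval -1.25 to -0.57), with an adjusted p of 0.0217 in limma. Its single probe was well above background on all 6 arrays, with processed signals of 4565, 5220 and 3769 in young and 3417, 2458 and 1610 in aged samples. Aged replicate 1 was the nearest to the young arrays, and within slide columns 1, 2 and 3 the change was -0.46, -1.14 and -1.13. Leaving out 1 array kept the change between -1.03 and -0.84. The adjusted p was 0.0400 and 0.0119 without young or aged replicate 1, but 0.0808 and 0.0675 without young replicate 2 or 3 and 0.0912 and 0.0700 without aged replicate 2 or 3, so the call was lost in those 4 cases. It was also lost without the filter on dim probes, at an adjusted p of 0.141 with more genes tested, and with the slide column, which has the same number as the replicate, as a block, at 0.0683.

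Cox6a1, the widely expressed partner of Cox6a2, was at 4.65, 4.75 and 4.93 in young and 4.66, 4.60 and 5.01 in aged samples, a change of -0.02 ± 0.14. The change of Cox6a2 minus that of Cox6a1 was -0.89. In an exact two-sided permutation test over samples, p was 0.1, the smallest that 3 against 3 allows, and 0.3 after adjustment over the 6 isoform pairs compared. Markers of skeletal and heart muscle were read beside this result. Of 8 listed, Ckm and Myh4 were well above background on 0 of the 6 arrays and Actc1 on 1, 4 were tested, and 0 passed the threshold, with a median change of 0.18 from -0.21 (Acta1) to 0.62 (Myh6). The summed linear level of the 8, relative to the 75th percentile, was 0.556 to 0.813 in young and 0.641 to 0.892 in aged samples, ranges that overlap.

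**Figure D3:**
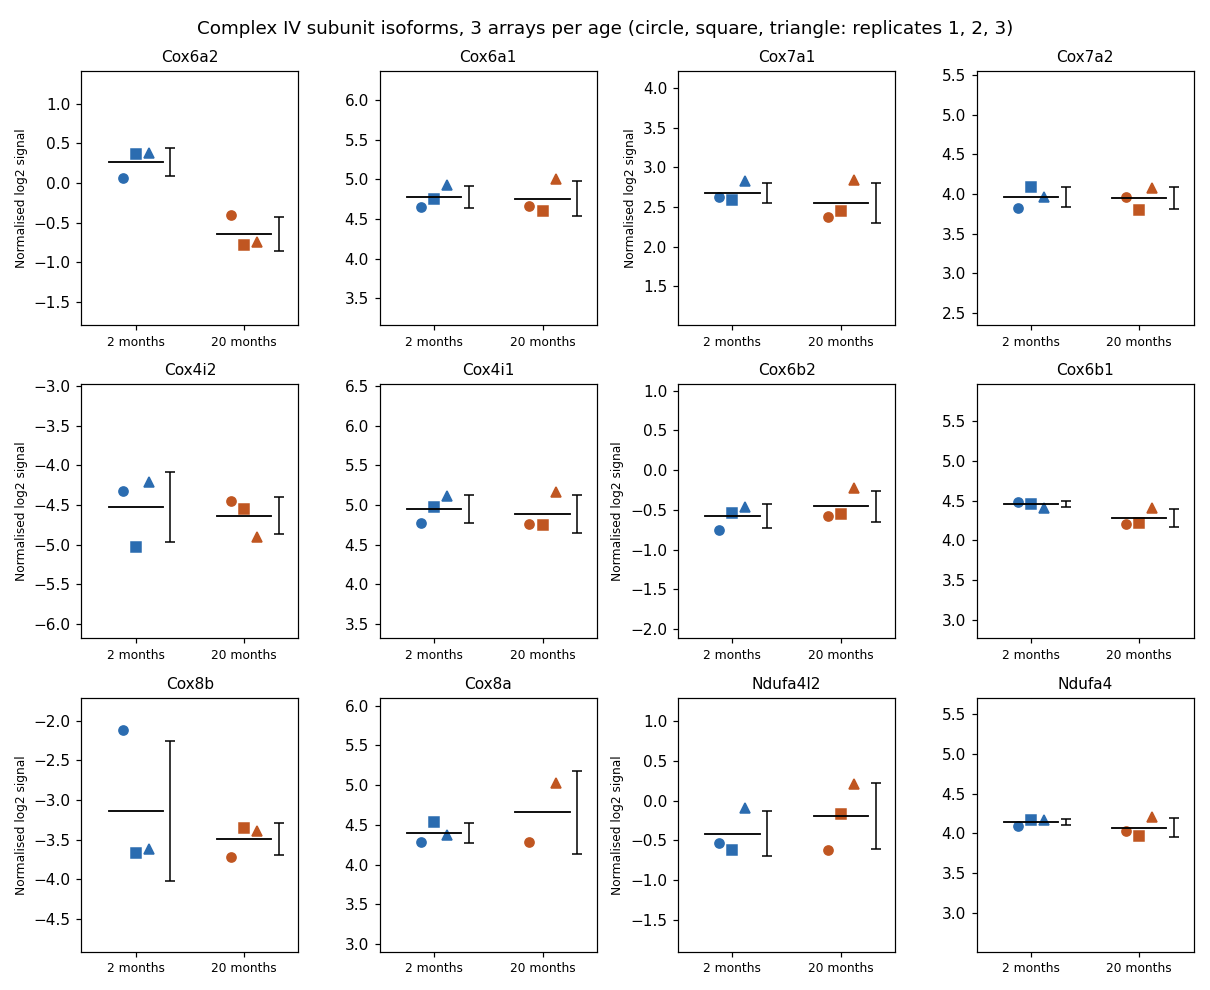
Normalised log2 signal of complex IV subunit isoforms and their widely expressed partners on each array, with the mean (line) and SD (bar) of 3 arrays per age (2 aged arrays for Cox8a); every panel has its own range. Cox6a2 has the widest gap between ages, with young values of 0.06 to 0.38 and aged values of -0.78 to -0.40, and in Cox6b1 the aged values also lie below the young ones, by a narrow gap.

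The other tissue isoforms of complex IV did not pass the threshold. Cox7a1, known from heart and muscle, was well above background on all 6 arrays, at 2.62, 2.59 and 2.82 in young and 2.37, 2.45 and 2.84 in aged samples (-0.12 ± 0.15, adjusted p = 0.730). Its partner Cox7a2 was at 3.83, 4.08 and 3.97 in young and 3.96, 3.80 and 4.08 in aged samples (-0.01 ± 0.12), and the 2 changes differed by -0.11 (exact permutation p = 0.5, adjusted 0.6). Both genes overlapped between ages. Cox6b2, known from testis, was at -0.75, -0.54 and -0.46 in young and -0.58, -0.56 and -0.23 in aged samples (0.13 ± 0.14), while Cox6b1, its common form, was at 4.49, 4.46 and 4.42 in young and 4.21, 4.22 and 4.41 in aged samples (-0.18 ± 0.11, adjusted p = 0.451). Cox6b1 values were lower in every aged sample, with the smallest gap in replicate 3. The difference of the changes was 0.30 (exact permutation p = 0.1, again the smallest possible, adjusted 0.3).

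Ndufa4l2, a relative of Ndufa4 known as a gene induced by low oxygen, was at -0.53, -0.62 and -0.09 in young and -0.62, -0.17 and 0.21 in aged samples, overlapping between ages (0.22 ± 0.23, adjusted p = 0.684). Ndufa4 was at 4.10, 4.17 and 4.17 in young and 4.03, 3.97 and 4.21 in aged samples (-0.07 ± 0.11). The 2 changes differed by 0.29 (exact permutation p = 0.3, adjusted 0.6). Cox4i2, the form known from lung, was dim, at -4.33, -5.03 and -4.21 in young and -4.45, -4.55 and -4.90 in aged samples. It was well above background on 3 young and 2 aged arrays, and its change of -0.11 ± 0.23 differed from that of Cox4i1 by -0.05 (exact permutation p = 0.8, adjusted 0.8). Cox7b2 and Cox8c, known from testis, were not well above background on any array and were not tested, and of 6 male germ cell markers 1 was bright enough to test.

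Cox8b, the form of subunit 8 known from heart, muscle and brown fat, was set apart by 1 young array. It was at -2.11, -3.67 and -3.62 in young and -3.72, -3.36 and -3.38 in aged samples. Young replicate 1 stood above the other 5 arrays, which lay within -3.72 to -3.36, and the change was -0.35 ± 0.39 (adjusted p = 0.703). Of 4 listed markers of brown fat cells, Cidea, a lipid droplet protein, was at -0.42, -2.37 and -2.66 in young and -1.98, -2.30 and -1.61 in aged samples. Ucp1, the brown fat uncoupling protein, was at -2.53, -6.54 and -7.38 in young and -6.60, -7.12 and -4.21 in aged samples, and was well above background on 2 young arrays and 0 aged ones. Cidea and Ucp1 were highest in young replicate 1, as Cox8b was. Dio2 was also highest there, at -5.08, but was well above background on 1 array only. Elovl3 was lowest there, at -9.05, and was well above background on 0 arrays. The summed linear level of the 4 markers was 0.954 in young replicate 1 and 0.176 to 0.408 on the other 5 arrays. Adipoq, a hormone of all fat cells, was lowest in young replicate 1, at -0.59, against 0.98 to 2.68 on the other arrays. Urothelium markers set the same array apart: the summed level of 5 was 4.23 in young replicate 1 and 0.276 to 0.445 on the others. Of 4 smooth muscle markers, Cnn1 was at 0.93 there and at -0.16 or below elsewhere. Myh11 and Acta2 were also highest there, but Tagln was not, at 3.13 there and 2.91 to 3.18 elsewhere. The summed level of the 4 was 19.6 there and 14.3 to 17.3 on the others. The part of these markers in the Cox8b values was not tested. Cox8a, the common form, was at 4.29, 4.54 and 4.37 in young samples and at 4.28 and 5.03 in aged replicates 1 and 3, the spot of aged replicate 2 being left out as an outlier. Its change of 0.26 ± 0.23 rests on those 5 arrays, and its second probe gave -0.05. On the same 5 arrays the change of Cox8b minus that of Cox8a was -0.68 (exact permutation p = 0.5, adjusted 0.6).

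**Figure D4:**
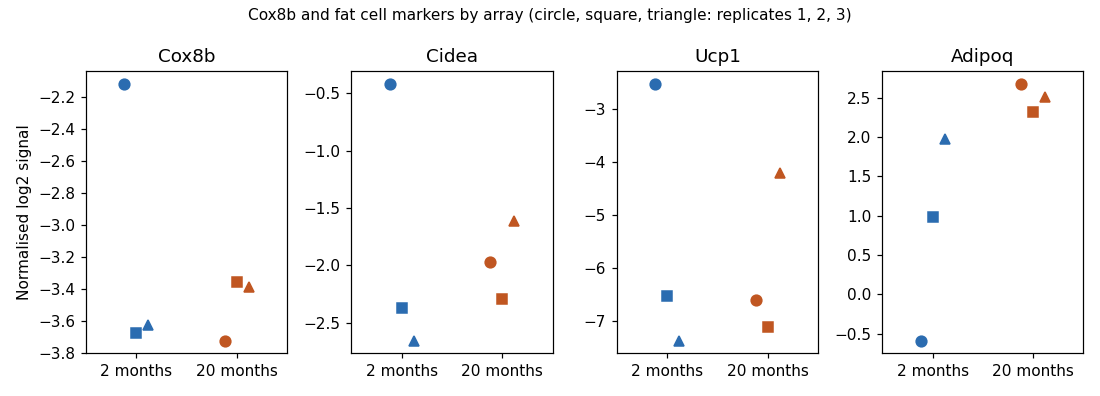
Normalised log2 signal on each array for Cox8b, the brown fat markers Cidea and Ucp1, and Adipoq, a marker of fat cells in general; every panel has its own range. Young replicate 1 is the highest array for Cox8b at -2.11, for Cidea and for Ucp1, and the lowest for Adipoq.

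Tested probe by probe, the members had 87 probes, of which 85 were tested and 1 was called, lower, beside 2.09% of all 30821 probes tested. Of 15 members with several probes, 5 had probes of opposite sign, and the widest spreads were 0.31 for Cox8a, 0.28 for Uqcrb and 0.25 for Ndufb11, an Ndufb subunit whose probes gave -0.16 and 0.09. Some members, such as Cox5b, Cox7c, Ndufs5, Ndufa12, Ndufab1 and Uqcrh, have pseudogenes or close copies. Copies were not searched for here, for these or other members, and signal from them cannot be told apart from the members' own.

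Promoter sequences are shown for members that carry the comparisons above: Sdhd, which had the smallest p after Cox6a2, Cox6a1, the partner of Cox6a2, and Cox7a1 and Cox8b, tissue forms of complex IV. Windows from 250 bases before to 50 after the gene start came from RefSeq (build GRCm38.p6) and held 54 of the 68 members in 56 windows. Each sequence is printed 5′ to 3′ along the gene's strand, with motif matches in capitals. Sdhd lies at chr9:50603800-50604099 on the minus strand, Cox6a1 at chr5:115348909-115349208 on the minus strand, Cox7a1 at chr7:30183921-30184220 on the plus strand and Cox8b at chr7:140900397-140900696 on the minus strand.
Sdhd: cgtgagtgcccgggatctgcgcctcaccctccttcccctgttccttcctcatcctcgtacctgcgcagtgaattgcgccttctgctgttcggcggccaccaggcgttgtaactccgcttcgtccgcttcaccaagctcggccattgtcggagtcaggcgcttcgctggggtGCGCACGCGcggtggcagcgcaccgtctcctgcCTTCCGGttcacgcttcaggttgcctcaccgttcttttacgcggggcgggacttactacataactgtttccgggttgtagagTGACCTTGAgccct
Cox6a1: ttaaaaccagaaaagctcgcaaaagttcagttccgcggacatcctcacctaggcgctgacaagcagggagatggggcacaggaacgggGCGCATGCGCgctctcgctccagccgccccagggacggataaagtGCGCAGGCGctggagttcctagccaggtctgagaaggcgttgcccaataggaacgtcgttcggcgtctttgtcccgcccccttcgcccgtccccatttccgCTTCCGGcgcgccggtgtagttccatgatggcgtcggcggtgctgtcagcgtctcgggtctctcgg
Cox7a1: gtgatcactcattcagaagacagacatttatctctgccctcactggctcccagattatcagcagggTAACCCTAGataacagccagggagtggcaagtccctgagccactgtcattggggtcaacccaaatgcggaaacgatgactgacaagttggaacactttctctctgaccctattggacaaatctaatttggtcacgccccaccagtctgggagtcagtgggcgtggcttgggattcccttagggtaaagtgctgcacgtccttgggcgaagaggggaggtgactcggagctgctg
Cox8b: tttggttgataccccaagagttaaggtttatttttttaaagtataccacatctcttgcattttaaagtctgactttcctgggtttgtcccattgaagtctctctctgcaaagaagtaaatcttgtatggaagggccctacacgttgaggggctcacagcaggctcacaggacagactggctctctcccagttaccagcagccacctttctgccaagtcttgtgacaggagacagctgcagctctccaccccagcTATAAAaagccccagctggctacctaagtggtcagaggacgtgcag
In Sdhd the capitals mark NRF1, ETS and ERR letters. In Cox6a1 they mark 2 NRF1 stretches, the first of which matches on both strands for 3 matches in all, and ETS letters. In Cox7a1 they mark loose MEF2 letters. In Cox8b they mark the letters TATAAA, which lie within the 50 bases after the gene start. Each motif was searched on both strands, and matches of different motifs overlapped in 1 member window.

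The NRF1 letters, GCGCANGCG, were in 14 of the 56 member windows (25%), beside 6.25% of all 32851 windows. The ETS factor letters, CCGGAAG, were in 19.6% of member windows beside 8.86% of all. The YY1 letters, AAGATGG, were in 14.3% beside 6.34%. The ERR letters, TCAAGGTCA, were in 1 member window (1.79%), that of Sdhd, beside 0.42% of all. A loose form of the MEF2 site, CTANNNNTA, was found in 14.3% beside 21.0%. The letters of a TATA box, TATAAA, were found anywhere in the window in 12.5% beside 13.6%. The member windows had a median GC content of 57.3%, beside 52.7% in all windows, and the NRF1 and ETS letters are rich in G and C. These shares are descriptions, and a match is not a shown binding site. NRF1 and ETS factors are known activators of respiratory chain genes.

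Genes that work with the respiratory chain were read from lists of ATP synthase, the citric acid cycle, assembly factors, electron carriers and regulators, and in limma 0 of their tested members passed the adjusted threshold in either direction. At an unadjusted p under 0.05 there were 4. Atp5l (1 of 18 ATP synthase genes) and Cox17 (1 of 19 complex IV assembly factors) were lower in aged kidney. Coq10b (1 of 13 coenzyme Q genes) and Pprc1 (1 of 18 biogenesis regulators) were higher. The other lists had 0, and the share over all genes tested was 17.1%. In ATP synthase, which makes ATP from the proton gradient, 18 of 18 genes were below 0, with a median of -0.15. Atp5l, a membrane subunit of it, was at 3.45, 3.68 and 3.56 in young and 3.42, 2.58 and 3.08 in aged samples (-0.54 ± 0.21, adjusted p = 0.234), and Atp5j, a stalk subunit, had a change of -0.39 ± 0.18 (adjusted p = 0.318). Aged replicate 2 was the lowest array for Atp5l, and the median change of the list within the slide columns was -0.05, -0.34 and -0.01. In the citric acid cycle, which supplies NADH and succinate, 12 of 13 genes were below 0, with a median of -0.13, and Idh3b and Idh3a, subunits of its NAD-dependent isocitrate dehydrogenase, had changes of -0.25 ± 0.13 and -0.18 ± 0.10.

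Assembly factors build the complexes and are not part of them. Those of complex I had 11 of 16 genes above 0 and a median of 0.05, while those of complexes II, III and IV had medians of -0.07, -0.09 and -0.03. Cox17, the copper chaperone of complex IV, was at 1.90, 2.29 and 2.10 in young and 1.95, 1.504 and 1.54 in aged samples. Aged replicates 2 and 3 lay below the young range and aged replicate 1 inside it, with a change of -0.43 ± 0.16 and an adjusted p of 0.222. Cytochrome c (Cycs), an electron carrier, had a change of -0.02 ± 0.11. Cytochrome c1 (Cyc1), a subunit of complex III that the symbol rule does not cover, had one of -0.12 ± 0.10. Among 13 coenzyme Q genes, with a median of -0.05, Coq10b, a coenzyme Q binding protein, was at 1.68, 1.87 and 1.73 in young and 1.93, 2.20 and 2.37 in aged samples. Every aged value lay above the young ones (0.41 ± 0.14, adjusted p = 0.186). The 8 other donors of electrons to coenzyme Q had a median of -0.01.

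The 18 regulators of mitochondrial biogenesis had 10 genes above 0 and a median of 0.01. Pprc1, a coactivator related to PGC-1, was at -1.94, -2.12 and -1.82 in young and -1.56, -1.34 and -1.51 in aged samples. All aged values were higher, and the change was 0.49 ± 0.12 with an adjusted p of 0.0820. Ppargc1a, which encodes PGC-1 alpha, had a change of -0.11 ± 0.14, Nrf1 one of -0.06 ± 0.12 and Tfam, which packs mitochondrial DNA and activates its transcription, one of -0.11 ± 0.11, and the groups overlapped for all 3. Segment markers were read beside these lists: the median change was -0.02 over 8 proximal tubule markers, -0.23 over 4 of the thick ascending limb, -0.20 over 5 of the collecting duct, -0.22 over 5 of intercalated cells, -0.02 over 4 of podocytes and 0.33 over 3 of the distal convoluted tubule. All markers of the thick ascending limb, collecting duct and intercalated cells were below 0, all 3 of the distal convoluted tubule were above 0, and 0 in these 6 lists passed the threshold. Their part in the members' values was not tested.

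**Figure D5:**
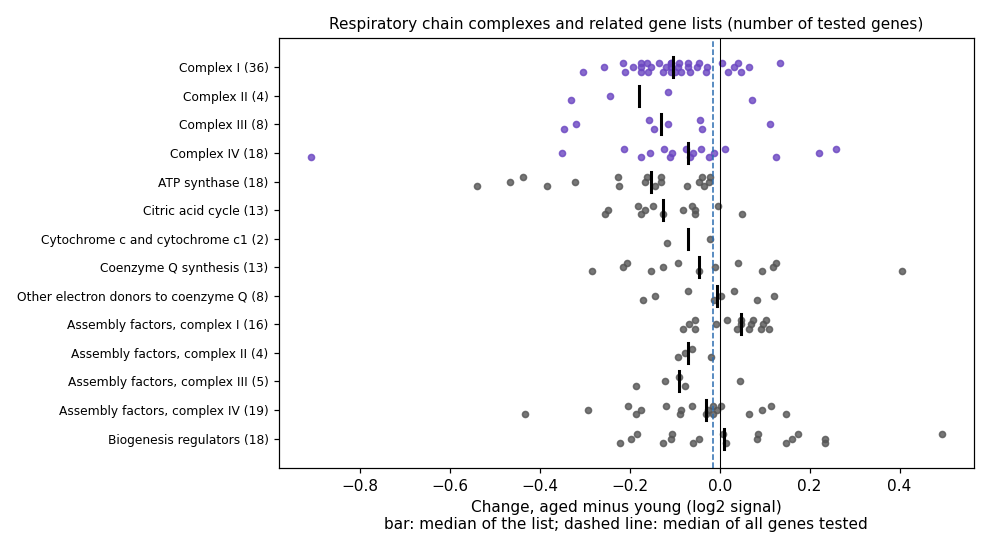
Change of each tested gene, aged minus young, in log2 signal, for the 4 complexes and for lists of related genes; bars are list medians and the dashed line is the median of all genes tested, -0.01. ATP synthase and the citric acid cycle lie mostly to the left of 0 like the complexes, and the assembly factors of complex I lie mostly to the right.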

How the data were processed

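Labelled cDNA from 6 kidney RNA samples was hybridised to Agilent one-colour arrays (design 028005), which were read, per the file headers, under protocol GE1_1105_Oct12 of Agilent's Feature Extraction software, version 11.5.1.1. The deposited intensity is background-subtracted within an array and not scaled between arrays, per the file headers. The authors' deposited value table holds log2 processed signal minus each array's 75th percentile, found by setting it against the scanner values. Labelling used random primers, per the labels' protocols, so either strand can carry the label.

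Control spots and 1071 spots with outlier flags were left out, log2 values of spots with the same probe were averaged, and each array's 75th percentile over 59305 non-control spots was subtracted. Of 55681 probes, 26762 carried 1 gene symbol through RefSeq transcripts of build GRCm38.p6, 28919 none and 0 several. The array's grid is on mm9, so GRCm38.p6 positions are given for the RefSeq promoter windows alone. A gene was its probe with the highest mean, and it was tested if every array of 1 age or both had it well above background. Ages were compared with limma 3.58.1 in R 4.3.3 (functions lmFit and eBayes, two-sided), and p-values were adjusted over 14545 genes by Benjamini-Hochberg. The script was tested on simulated data with independent noise for each gene. Those data held no shift shared by the genes of an array, so the test does not cover such shifts. SE is limma's moderated standard error. The number of arrays limits the precision, and no probe was saturated.

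The members and gene lists were chosen with earlier results of these data known. All members may be named, and values on all arrays are given for members past the threshold, the 3 smallest p per complex, core subunits and tissue isoforms. Counts and medians cover all members, but the values of 1 member are not reported here. After scaling, same-numbered samples did not deviate together (correlations 0.062, -0.092 and 0.102), so the main fit did not take the numbers as pairs. Before scaling, the 75th percentile and the share of probes well above background fell from replicate 1 to replicate 3 at both ages. Alternatives were other scalings, the authors' values, normexp background correction (offset 50), other filters, probe means, other variance models, the replicate block and leaving out each array. The slide block was not run, since there was 1 slide.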

Additional observations from a re-analysis of the deposited data

How the results depend on the processing

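The call of Cox6a2 and its direction held with quantile normalization, median centring, the authors' values, normexp, a filter on all 6 arrays, outlier spots kept, probe means, a trended robust variance, array weights and a percentile over probes (chosen after seeing the data), with adjusted p between 0.00270 and 0.0294. The count of members called was 0 with no filter on dim probes (adjusted p 0.141 for Cox6a2) and 0 with the replicate block (0.0683), and 0 to 1 when single arrays were left out. Over all genes the count moved from 491 to 801 with median centring, 290 with normexp, 16 with no filter, 782 with array weights and 266 with the replicate block, and to between 141 and 925 with arrays left out: 161, 242 and 238 without young replicates 1, 2 and 3, and 925, 141 and 245 without aged replicates 1, 2 and 3. The related lists had 1 call with array weights, Pprc1, and 0 to 0 with arrays left out. With arrays left out, the median change ranged from -0.183 to -0.055 for all members, -0.183 to -0.060 for complex I, -0.272 to -0.131 for complex II, -0.169 to -0.055 for complex III and -0.166 to -0.012 for complex IV. It stayed below 0 under each alternative run. The causes were not tested. Single members were followed through the alternatives only if past the threshold, among the 3 smallest p per complex, a core subunit or a tissue isoform. Of their values, 615 kept their direction and side of the threshold, 44 uncalled ones changed sign and 6, all of Cox6a2, lost the call. With 3 arrays per age, an interval that spans 0 does not show that a gene was unchanged. A true change of any size inside it is not excluded.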
